A study of Drosophila melanogaster with 18 samples.

Results

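Diploid Drosophila melanogaster embryos late in nuclear cycle 14 were compared with diploid embryos in cycle 13, which gives the net change of each transcript across the maternal-to-zygotic transition. The arrays were chosen by their titles, which name the nuclear cycle and call these embryos wild-type, here termed diploid. Of the 18 arrays of the series, 6 belong to this comparison. The 3 late cycle 14 samples were collected 40 min after the division that ended cycle 13, and the 3 cycle 13 samples 15 min after the division that ended cycle 12. Both groups came from w parents that carry a histone H2-GFP fusion, so the fluorescent histone used for staging was present in the later and the earlier embryos alike. Each sample was total RNA of about 50 whole embryos, raised at 25 C, picked by hand under a fluorescence microscope and pooled, and hybridised to a 1-colour Affymetrix array.

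The other 12 arrays were 3 from early cycle 14 diploids, taken 15 min after division, and 9 from haploid embryos of maternal haploid mothers with the same histone fusion. Haploid late cycle 15 and haploid cycle 14 (3 arrays each) give the same pair of times in embryos with 1 chromosome set, 1 cycle later. Whole embryos were measured, so fewer cells of a type and less RNA per cell cannot be told apart.

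A newly fertilised fly egg is loaded with RNA made by the mother, and its nuclei divide in near synchrony without cell membranes. During the last of these divisions the cycles lengthen, maternal RNA is degraded and the zygotic genome is transcribed in earnest. In cycle 14 the embryo pauses, membranes grow in between the nuclei, and the patterning genes settle into the stripes and bands that lay out the body plan.

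Intensities are the deposited values after quantile normalisation. Probe sets that were dim nearly everywhere were left out, which left 14560, and the brightest tested probe set stood for each of 10034 named genes. Of 735 genes with over 1 probe set, 328 had probe sets whose late cycle 14 against cycle 13 differences were of opposite sign. Background was an intensity of 31.9, the 95th percentile of the negative control probe sets. Replicate arrays of a group correlated at 0.928 to 0.947 over probe sets, and late cycle 14 arrays correlated with cycle 13 arrays at 0.866 to 0.883. Before normalisation the upper quartile of intensity was 128 to 136 in late cycle 14 and 205.7 to 268.5 in cycle 13. The GAPDH 3′ control probe set, itself a glycolytic transcript, read 128 to 159 in late cycle 14 and 508 to 1305 in cycle 13 after normalisation. The ratio of the 3′ to the 5′ actin control was 1.83 to 2.01 in late cycle 14 and 2.05 to 2.19 in cycle 13, and its part in the results was not tested.

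Of the 10034 genes, 2766 (27.6%) were higher and 2002 (20%) lower in late cycle 14 at an adjusted p below 0.05 (limma with Benjamini-Hochberg adjustment). At least 2-fold differences were called for 1010 higher genes (10.1%) and 1340 lower genes (13.4%). The median log2 difference over all genes was 0.09, and -0.33 to -0.15 under the 3 centrings described next. The intensities of the groups did not overlap for 5610 genes (55.9%).

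The balance of rises and falls depended on how the arrays were scaled. Over probe sets, 3490 were called higher (24%) and 2394 lower (16.4%) after quantile normalisation, so that 59.31% of calls were higher, with 1391 (9.55%) and 1623 (11.1%) past 2-fold. As deposited the counts were 1867 higher and 2744 lower (40.49% higher), with median centring 1141 and 3327 (25.54%), with centring on ribosomal protein genes 1081 and 3428 (23.97%), and with centring on the spiked poly-A controls 764 and 3388 (18.4%). The median log2 difference over probe sets was 0.09 after quantile normalisation, 0.10 as deposited, -0.12 with median centring, -0.16 with ribosomal centring and -0.29 with poly-A centring. Under all 5 scalings 763 probe sets (5.24%) were called higher and 2239 (15.4%) lower. Of the genes, 529 (5.27%) were called higher and 1897 (18.9%) lower under all 5 scalings, while 149 genes called higher here were called lower under some scaling and 0 the other way. The calls made under all 5 scalings are given beside the count of each list of genes described here.

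**Figure D1:**
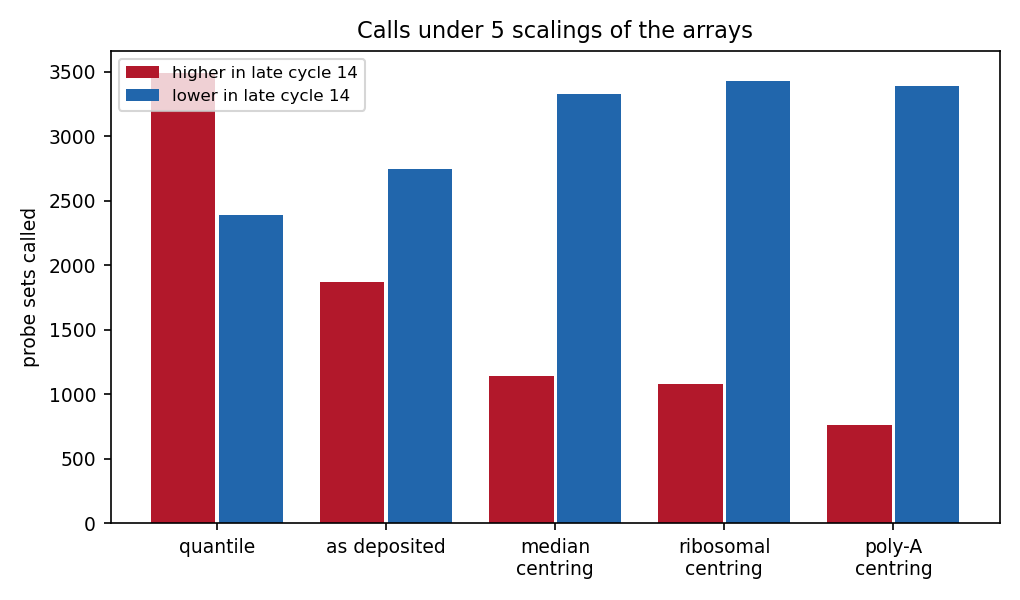
Probe sets called higher (red) and lower (blue) in late cycle 14 than in cycle 13, as counts, under 5 scalings of the arrays. Quantile normalisation gave 3490 higher and 2394 lower, and poly-A centring 764 and 3388.

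**Figure D2:**
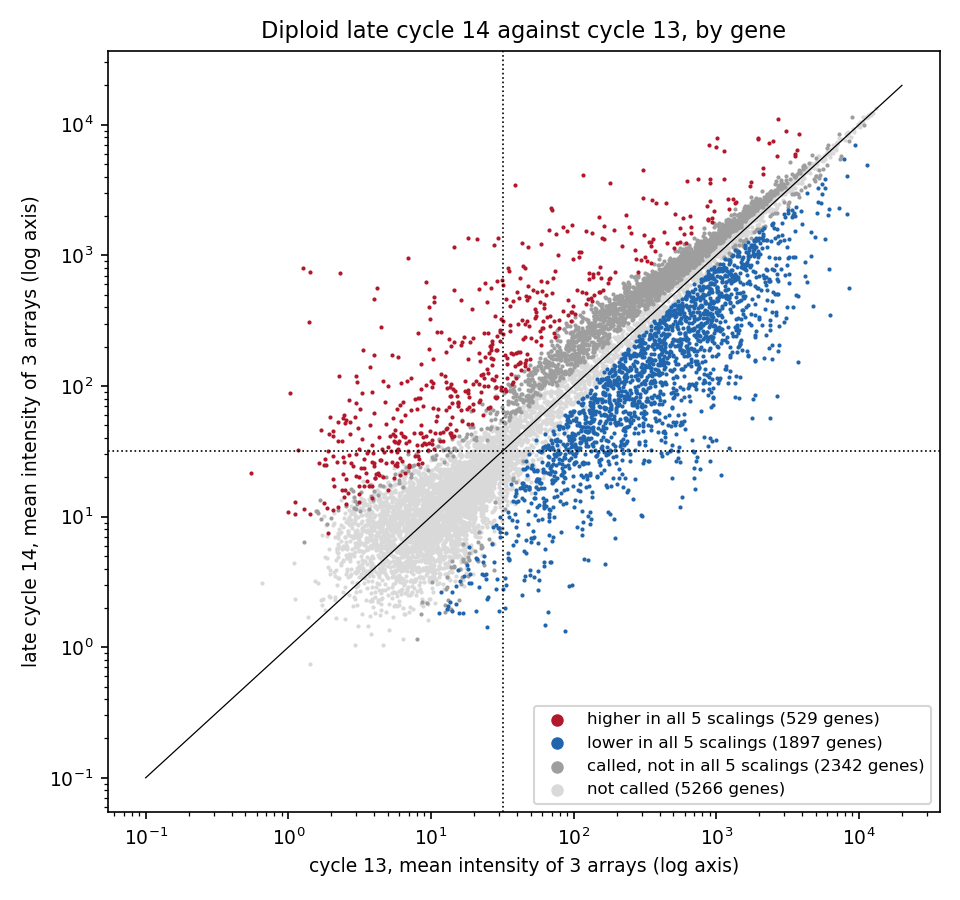
Mean intensity of each of 10034 genes on 3 late cycle 14 arrays (vertical, log axis) against 3 cycle 13 arrays (horizontal, log axis). Red points (529) were higher and blue points (1897) lower under all 5 scalings, dotted lines mark background, and the solid line marks equal intensity.

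The largest rises among genes above background on all 6 arrays included regulators of tube formation, Notch signalling, tumour necrosis factor signalling and cell contact. Changes below are log2 differences, late cycle 14 minus cycle 13, ± the standard error of the fit where given. The gene link gave 3919.9, 4302 and 4143 in late cycle 14, against 108, 111 and 132 in cycle 13, a log2 difference of 5.14 ± 0.08 (adjusted p = 5.5e-23). The values of rib, a BTB-domain transcription factor required for tube-shaped organs, were 2409.6, 2168 and 2374 in late cycle 14, against 55.9, 90.4 and 65.4 in cycle 13 (5.07 ± 0.12, adjusted p = 4.2e-20). For bib, a neurogenic channel protein, they were 2321, 1961 and 2367 in late cycle 14 and 53.3, 93.1 and 69.9 in cycle 13 (4.97 ± 0.15, adjusted p = 2.6e-18). The late arrays were far above the earlier ones in each case, and only genes without overlap between the groups were eligible here. Eiger (egr), the fly tumour necrosis factor, gave 1119, 1250.3 and 1129.5 in late cycle 14, against 46.1, 56.2 and 42.2 in cycle 13 (4.61 ± 0.12, adjusted p = 1.3e-19). Traf4, an adaptor protein of the same signalling family, had 836, 818 and 763 in late cycle 14 and 32.7, 37.0 and 34.2 in cycle 13 (4.54 ± 0.12, adjusted p = 2.2e-19). The other rises of this size were l(3)neo38 (4.82), the adenylate cyclase Ac78C (4.55), the transporter Mdr49 (4.43), the neuroblast polarity adaptor mira (4.35), the gap junction gene Inx3 (4.31), the scavenger receptor Sr-CII (4.29) and CG33232 (4.29). Their early cycle 14 means lay between the later and the earlier group in all 12 genes, for example 1246 for link and 1111 for Inx3.

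A further 369 called genes had all cycle 13 arrays below background, and 231 of these reached background on average in late cycle 14. The odd-paired gene opa, a zinc-finger pair-rule regulator, gave 766, 759 and 714 in late cycle 14, against 1.17, 2.52 and 0.961 in cycle 13. Its late arrays were at least 23.3-fold above background-level cycle 13 (adjusted p = 3.2e-12). The Hedgehog effector ci gave 1030.3, 973 and 869 in late cycle 14, against 9.48, 4.04 and 8.61 in cycle 13, at least 29.9-fold higher (adjusted p = 1.0e-17). The homeotic regulator salm gave 822, 633 and 745 in late cycle 14, against 4.57, 2.52 and 1.08 in cycle 13, at least 22.8-fold higher (adjusted p = 3.1e-14). All 3 cycle 13 arrays were dark for these genes and all late arrays bright. The bounds for the rest were 42.7-fold for CG15628, 41.8-fold for the BTB gene lov, 36.1-fold for the membrane glycoprotein Gp150, 25.0-fold for the POU factor nub and 19.4-fold for CG43394. Probe sets of nub disagreed, with log2 differences of -1.02 to 9.30.

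The largest falls included transcripts of the germ plasm, the germline, the cytoskeleton and lipid droplets. Stathmin (stai), a microtubule destabiliser, gave 63.6, 42.4 and 66.7 in late cycle 14, against 2339, 2321 and 2521 in cycle 13 (-5.40 ± 0.19, adjusted p = 4.9e-17). Oskar (osk), the organiser of the pole plasm, gave 177, 131 and 154 in late cycle 14, against 3393, 3954 and 3982 in cycle 13 (-4.62 ± 0.19, adjusted p = 4.5e-16). The perilipin Lsd-2, which coats lipid droplets, gave 336, 279.6 and 449 in late cycle 14, against 6343, 6054 and 6311 in cycle 13 (-4.16 ± 0.15, adjusted p = 6.7e-17). In each, every late array was below every cycle 13 array, as the choice of genes required. The germline innexin zpg gave 42.8, 37.4 and 34.7 in late cycle 14, against 922, 845 and 1056 in cycle 13 (-4.62 ± 0.29, adjusted p = 1.4e-12). The remaining falls of this size were CG9917 (-4.996), the tetraspanin Tsp66E (-4.96), olf186-M (-4.69), the kinase fray (-4.51), glec (-4.50), rost (-4.47), CG7627 (-4.33) and CG10254 (-4.15).

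Another 316 called genes were below background on all late cycle 14 arrays, and 227 of these reached background on average in cycle 13. The oocyte RNA-binding protein gene orb gave 30.9, 26.7 and 22.5 in late cycle 14, against 861, 888 and 961 in cycle 13, at least 28.2-fold lower (adjusted p = 8.9e-14). The transport adaptor egl, which links localised RNAs to dynein, gave 15.9, 9.92 and 18.2 in late cycle 14, against 570.4, 602 and 549.9 in cycle 13, at least 17.95-fold lower (adjusted p = 1.0e-09). The bounds were 33.6-fold for the transporter E23, 23.9-fold for the helicase Mov10, 22.4-fold for the kinase Sik3, 22.2-fold for the glycosyltransferase C1GalTA, 21.9-fold for the mitochondrial carrier Bmcp and 21.8-fold for mtd. Probe sets of mtd disagreed in sign, at -4.89 to 1.77. Apart from nub, the other genes named so far with several probe sets kept their direction. Their ranges could be wide, such as -4.74 to -1.12 for Sik3 and 0.82 to 4.29 for CG33232. All 40 genes named so far by size of change were called the same way under all 5 scalings, which their choice for large changes made likely.

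**Figure D3:**
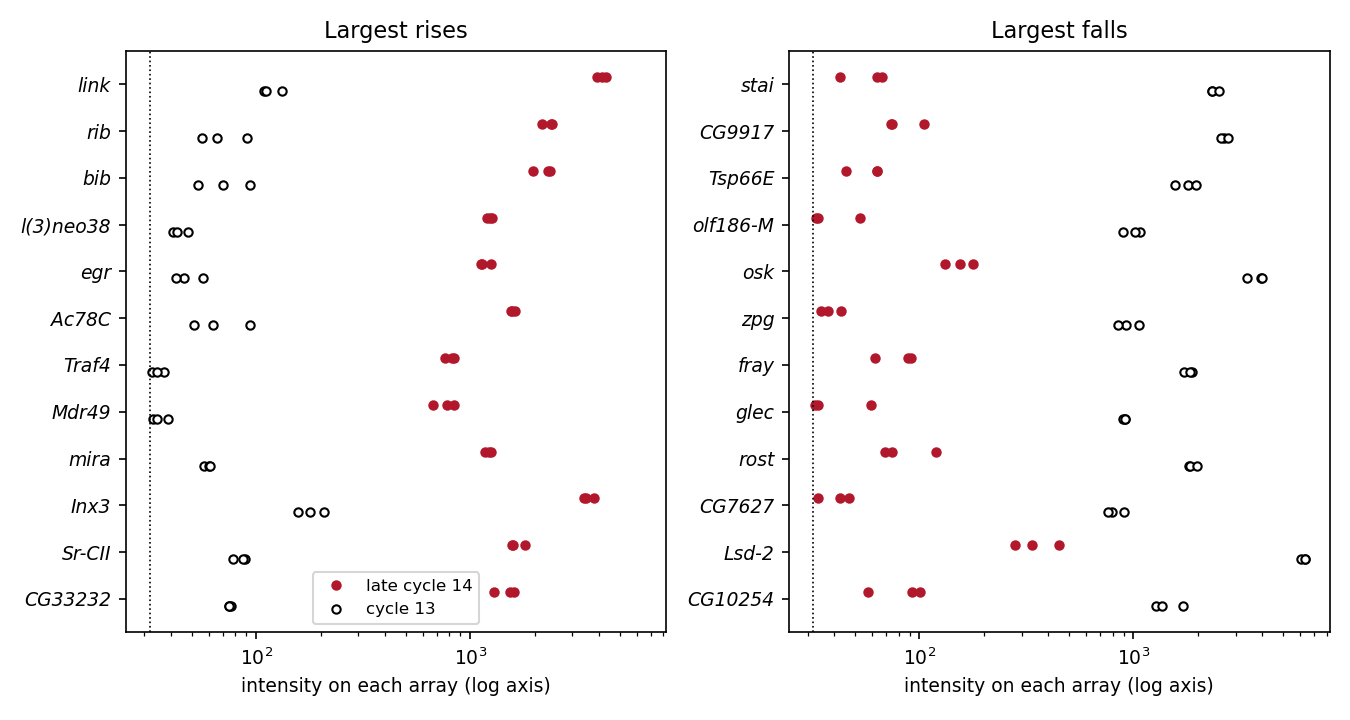
Intensity on each array (log axis) of the 12 largest rises and the 12 largest falls among genes above background on all 6 arrays, with 3 late cycle 14 arrays (filled) and 3 cycle 13 arrays (open) a gene. Only genes whose groups do not overlap were eligible, and the dotted line is background.

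Lists of genes of known function were then read against the shares over all genes, 27.6% higher and 20% lower. Counts cover tested genes only. Some known members had no probe set assigned to them alone, such as run and slp1 (pair-rule), sog and brk (neuroectoderm) and stg (mitotic entry). Of the genes given with a log2 difference, 18w, Ama, robo1, srp, skl and E(spl)m7-HLH had 1 of 3 cycle 13 arrays above background and msl-2 had 2. Of those that fell, l(1)sc had 2 of 3 late cycle 14 arrays above it, and Cdc45 and Hnf4 had 1. The gap and terminal genes, which divide the embryo into broad domains, were higher in 11 of 13 and lower in 0, all 11 under all 5 scalings, with a median log2 difference of 2.74. Knirps (kni) gave 1339, 1280.1 and 1485 in late cycle 14, against 144, 192 and 140.4 in cycle 13 (3.12 ± 0.12, adjusted p = 1.5e-16). Orthodenticle (oc), a head gap gene, gave 263, 272 and 229.9 in late cycle 14 and 23.2, 24.9 and 27.8 in cycle 13, at least 7.96-fold higher. Among those below background in cycle 13, knrl was at least 2.76-fold and the terminal gene fkh at least 6.74-fold higher. All 7 pair-rule genes tested were higher, 6 of them under all 5 scalings, with a median of 2.68, or 1.97 with all values floored at background. The odd-skipped gene odd gave 1516, 1507 and 1604 in late cycle 14, against 84.2, 81.5 and 104 in cycle 13 (4.11 ± 0.12, adjusted p = 2.6e-18). The pair-rule gene prd differed by 2.68, and slp2 was at least 3.07-fold higher. Of 9 segment polarity and Hox genes, 6 were higher and 0 lower (5 under all 5 scalings), with a median of 2.21, or 0.35 with that floor, among them nkd and ptc at bounds of 5.43-fold and 3.44-fold. The engrailed gene en was also called, with every array of both groups below background.

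Genes of the dorsal-ventral regions moved both ways. In the mesoderm list 6 of 12 genes were higher and 3 lower, the same number under all 5 scalings, with a median of 1.58, or 0.28 with values floored at background. Twist (twi), the mesoderm determinant, gave 1375, 1272 and 1352 in late cycle 14, against 159, 187 and 149 in cycle 13 (3.02 ± 0.13, adjusted p = 9.2e-16). The fibroblast growth factor receptor gene htl was at least 3.29-fold higher, and its ligand gene pyr at least 1.19-fold. Folded gastrulation (fog) fell (-1.69), as did T48 (-1.08), another gene of apical constriction. In the neuroectoderm list 4 of 9 genes were higher and 4 lower (3 and 4 under all 5 scalings), with a median of 0.63 that ran from -0.21 to -0.04 under the 3 centrings and was 0.00 with that floor. The proneural gene l(1)sc gave 32.8, 47.1 and 27.0 in late cycle 14, against 839, 915 and 858 in cycle 13 (-4.65 ± 0.16, adjusted p = 3.9e-17). SoxN was at least 19.4-fold higher and the Sox gene D differed by 2.59, while wor was called lower with every array of both groups below background. Of 16 dorsal ectoderm and amnioserosa genes, 11 were higher and 3 lower (10 and 2 under all 5 scalings), with a median of 2.28, or 1.09 with that floor. The protease gene tld gave 952, 1217 and 1041 in late cycle 14, against 95.7, 127 and 115 in cycle 13 (3.25 ± 0.10, adjusted p = 7.4e-18), and its relative tok was at least 8.11-fold higher. The gene tup was called with every array below background.

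In the sex determination and dosage list 11 of 16 genes were higher and 3 lower (6 and 3 under all 5 scalings), with a median of 1.05. Sex-lethal (Sxl), the switch gene of female development, gave 2564, 3099 and 2649 in late cycle 14, against 237, 365 and 339.5 in cycle 13 (3.16 ± 0.16, adjusted p = 3.6e-14), and its probe sets ranged from 1.20 to 4.22. The X-chromosome counting gene sc gave 105, 128 and 103 in late cycle 14, against 1059, 1069 and 990.5 in cycle 13 (-3.22 ± 0.17, adjusted p = 9.1e-14). The ligand gene upd1 differed by 2.33 and the dosage compensation gene msl-2 was higher by 3.39. Of 13 Bearded and Enhancer of split genes, 4 were higher and 2 lower (3 and 2 under all 5 scalings, median -0.13). Ocho and Tom, Bearded family members, were higher by 2.13 and 1.74, and E(spl)m7-HLH by 2.08, while E(spl)m3-HLH was called lower with every array below background.

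The genes of cellularization, which drive the membranes inward, were higher in 9 of 10 and lower in 1, but 3 of the rises held under all 5 scalings (median 0.45). Slam gave 7282, 7117 and 8184 in late cycle 14, against 2600.4, 2822 and 2147 in cycle 13 (1.58 ± 0.10, adjusted p = 8.6e-13). Nullo, needed for the first furrows, gave 577, 688 and 729 in late cycle 14, against 2281, 2635 and 2125 in cycle 13 (-1.82 ± 0.12, adjusted p = 8.5e-12), with an early cycle 14 mean of 3237 above both. Sry-alpha and halo were higher by 2.48 and 1.98. The list also holds dia, an actin nucleator, which was called higher here and lower with median, ribosomal and poly-A centring. Of 16 epithelial adhesion and polarity genes 15 were higher and 1 lower (6 and 1 under all 5 scalings), with a median of 1.00. The Toll family genes 18w and Tollo were higher by 5.42 and 3.24, the polarity gene sdt by 3.72 with probe sets from -2.01 to 3.72, and aPKC was at least 2.11-fold higher. Of 10 axon guidance and cell surface genes 6 were higher and 0 lower (5 under all 5 scalings), with a median of 1.60, or 0.74 with values floored at background. Amalgam (Ama), an immunoglobulin-domain adhesion protein, gave 1363, 1302 and 1431 in late cycle 14, against 27.7, 36.3 and 25.8 in cycle 13. The guidance gene comm was at least 14.4-fold higher and its receptor target robo1 differed by 2.92, and Dscam1 had 1 late array above background. Of 10 apoptosis genes 8 were higher and 0 lower (4 under all 5 scalings, median 1.31, or 0.66 with that floor), with the Eiger receptor gene grnd at least 5.38-fold higher and the death gene skl at 2.44. The other Eiger receptor gene, wgn, was called with every array below background, and the caspase gene Dredd was called higher here but lower with median, ribosomal and poly-A centring.

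**Figure D4:**
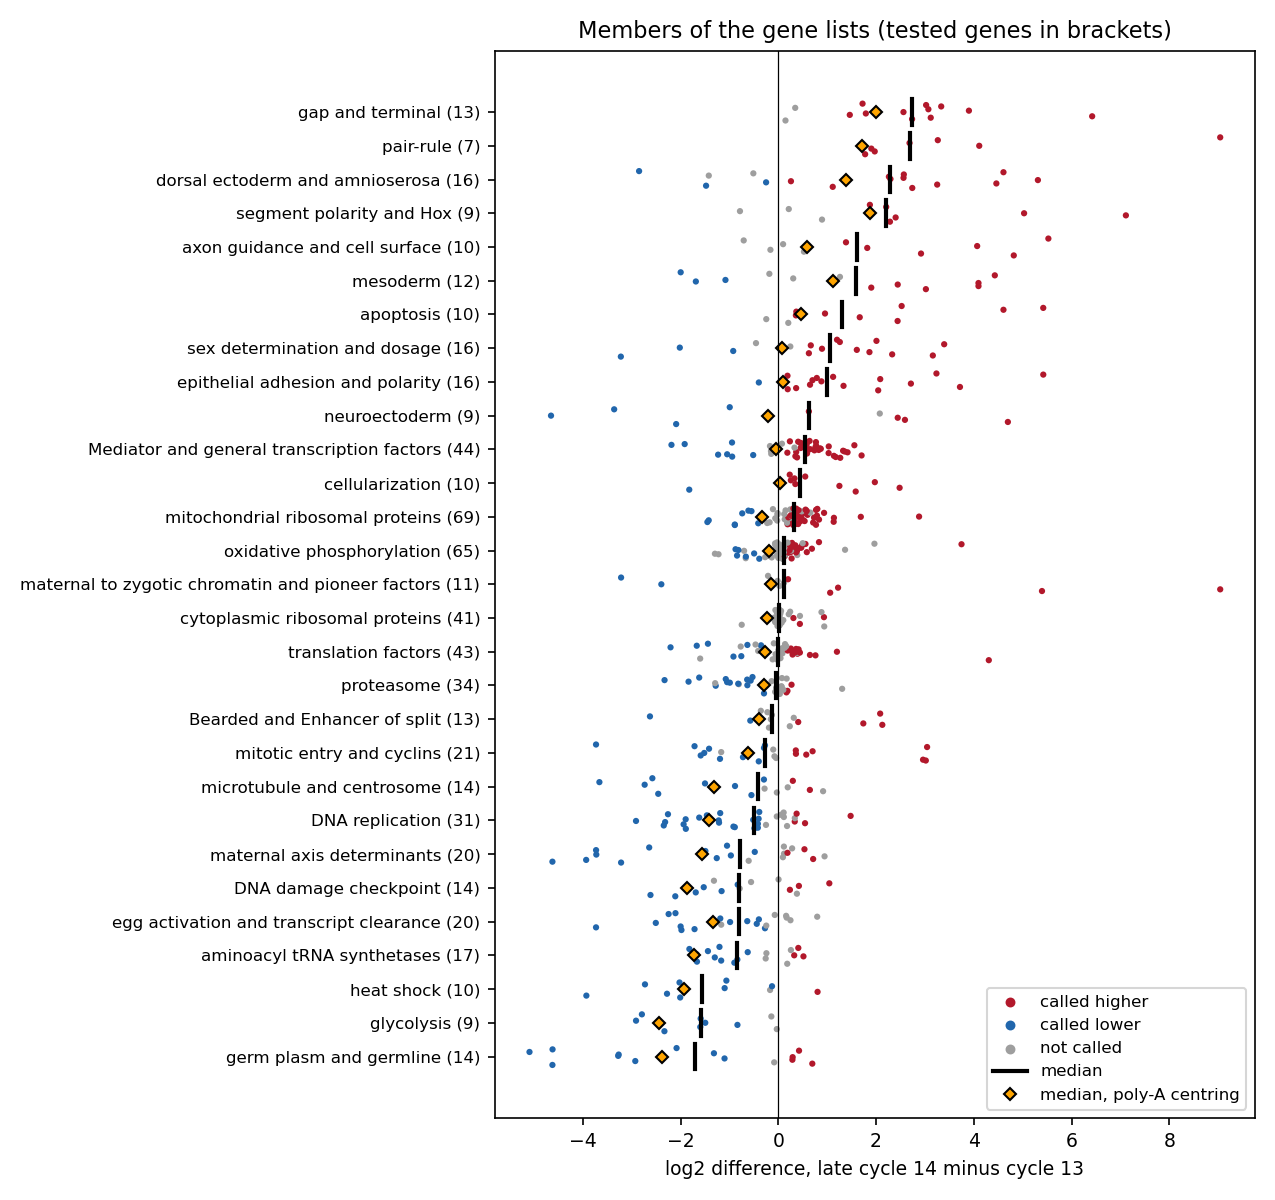
Log2 difference, late cycle 14 minus cycle 13, of each tested member of the function lists (points, coloured by call), with the list median (bar) and its value under poly-A centring (diamond). The medians of the lists drawn run from 2.74 (gap and terminal) to -1.70 (germ plasm), and the cell type marker lists are not drawn.

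The cell cycle lists leaned towards falls. Of 31 DNA replication genes 20 were lower and 4 higher, with 20 and 0 under all 5 scalings and a median of -0.49. Orc1, a subunit of the origin recognition complex, gave 299, 247 and 342 in late cycle 14, against 1694, 1486 and 1304 in cycle 13 (-2.34 ± 0.15, adjusted p = 1.7e-12). RPA1, which binds single-stranded DNA, gave 177, 179 and 146 in late cycle 14, against 1343, 1071 and 1364 in cycle 13 (-2.91 ± 0.18, adjusted p = 1.8e-12). Cdc45 (-2.32) and Gnf1 (-2.26) fell too. Of 14 DNA damage checkpoint genes 6 were lower and 3 higher (6 and 0 under all 5 scalings, median -0.81). Grapes (grp), the fly Chk1 kinase, gave 1409, 1274 and 1312 in late cycle 14, against 6403, 4920.1 and 5979 in cycle 13 (-2.11 ± 0.08, adjusted p = 1.9e-16), with probe sets from -2.11 to 0.75. Also lower were the Chk2 kinase gene lok (-2.61), the ATR partner gene mus304 (-1.69) and rad50 (-1.53), and p53 was called higher here but lower with ribosomal centring. In the list of mitotic entry and cyclins 10 of 21 genes were lower and 7 higher (8 and 3 under all 5 scalings, median -0.27). The mitotic inhibitor genes trbl (3.02) and Z600 (2.96) were higher, and the centriole kinase gene SAK was at least 6.86-fold higher. The repressor gene E2f2 of this list was called higher here but lower with median, ribosomal and poly-A centring. Z600 reached 7904, 8038 and 7758 in late cycle 14, against 877, 1122 and 1060.1 in cycle 13. The activator of syncytial mitoses gnu gave 146, 158 and 191 in late cycle 14, against 2236, 1948 and 2342 in cycle 13 (-3.73 ± 0.12, adjusted p = 7.4e-18).

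Maternally supplied transcripts fell widely. Of 20 maternal axis determinants 11 were lower and 3 higher (11 and 0 under all 5 scalings), with a median of -0.79, or -0.52 with values floored at background. Swallow (swa), which helps anchor bicoid RNA, gave 139, 174 and 171 in late cycle 14, against 2595, 2345 and 2403 in cycle 13 (-3.93 ± 0.12, adjusted p = 5.3e-18). The Toll ligand gene spz fell (-3.73), and dorsal (dl) was at least 6.95-fold lower, with probe sets from -3.72 to 0.70. Of 14 germ plasm and germline genes 9 were lower and 4 higher (9 and 0 under all 5 scalings), with a median of -1.70. Ovo, a germline transcription factor, gave 122, 129 and 137 in late cycle 14, against 1382, 1131 and 1254 in cycle 13 (-3.28 ± 0.17, adjusted p = 3.0e-14). In the egg activation and transcript clearance list 13 of 20 genes were lower and 0 higher (12 under all 5 scalings), with a median of -0.81, or -0.54 with that floor. Among them were the deadenylase gene twin (-2.51), the cytoplasmic poly(A) polymerase gene wisp (-2.24) and nanos (-2.10). Of 11 chromatin and pioneer factors 5 were higher and 2 lower (3 and 2 under all 5 scalings), with a median of 0.12 that was -0.01 with ribosomal and -0.14 with poly-A centring. Bicoid (bcd) gave 281, 343 and 378 in late cycle 14, against 3347, 3011 and 2896 in cycle 13 (-3.22 ± 0.20, adjusted p = 1.1e-12), and its early cycle 14 mean was 2976. The embryonic linker histone gene BigH1 fell (-2.39), and grh was at least 13.8-fold higher.

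Heat shock genes were lower in 8 of 10 and higher in 1 (7 and 0 under all 5 scalings, median -1.55). Hsp27, a small chaperone loaded into eggs, gave 541, 539 and 605 in late cycle 14, against 8069.7, 8742 and 8777 in cycle 13 (-3.93 ± 0.12, adjusted p = 2.4e-18). Other falls were in Hsc70-5 (-2.73), Hsp60A (-2.28) and DnaJ-1 (-2.02). Of 14 microtubule and centrosome genes 8 were lower and 2 higher (8 and 0 under all 5 scalings, median -0.42), among them the spindle and centrosome genes tacc (-3.66) and spd-2 (-2.73), the kinesin gene Klp10A (-2.58) and the maternal tubulin alphaTub67C (-2.46).

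Housekeeping lists split. Glycolysis genes were lower in 7 of 9 and higher in 0, all 7 under all 5 scalings, with a median of -1.59. Gapdh1 gave 353, 324 and 369.7 in late cycle 14, against 2915, 2512 and 2453 in cycle 13 (-2.91 ± 0.14, adjusted p = 7.3e-15). The enzymes Eno (-2.79), Hex-A (-2.33) and Pfk (-1.60) followed. Of 17 aminoacyl tRNA synthetase genes 10 were lower and 3 higher (10 and 0 under all 5 scalings, median -0.84), with TrpRS, LeuRS, AsnRS and SerRS at -1.82, -1.67, -1.66 and -1.44, and with HisRS called higher here but lower with median and ribosomal centring. Of 41 cytoplasmic ribosomal protein genes 3 were higher and 0 lower, none of the 3 under all 5 scalings, and the median of 0.02 ran from -0.23 to -0.06 under the 3 centrings. Those were RpLP0-like, RpL24-like and RpL7-like, at 0.93, 0.44 and 0.31, the last with a value of -0.01 under a scaling. Ribosomal centring holds the mean of these same genes' probe sets equal on all arrays. The list's values under that scaling were therefore partly fixed in advance.

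Several other lists had modest median changes that depended on the scaling. Of 69 mitochondrial ribosomal protein genes 43 were higher and 8 lower, against 1 and 8 under all 5 scalings, and the median of 0.32 ran from -0.33 to -0.16 under the 3 centrings. Members with every array above background included mRpL47 (2.88), mRpL21 (-1.45) and mRpL30 (-1.42). For mRpL46 the values were 85.2, 82.7 and 55.6 in late cycle 14 and 42.0, 6.23 and 44.8 in cycle 13, with 1 cycle 13 array below background. Called higher here but lower with ribosomal centring were mRpL23, mRpL54, mRpS23, mRpS31 and mRpS34. Of 44 Mediator and general transcription factor genes 32 were higher and 7 lower, against 3 and 7 under all 5 scalings, and the median of 0.56 was -0.05 with poly-A centring. Taf8 (-2.19) and the TATA-binding protein gene Tbp (-1.91) fell, MED17 and Taf7 were higher by 1.70 and 1.56, and MED28 was called higher here but lower with median, ribosomal and poly-A centring. Of 65 oxidative phosphorylation genes 23 were higher and 6 lower (1 and 5 under all 5 scalings), with a median of 0.12 that ran from -0.19 to -0.02 under the 3 centrings. Members named were ND-ACP (-0.87), ATPsyngamma (-0.84) and UQCR-Q (0.83), the last with a value of -0.079 under a scaling. SdhBL was also called higher, with 1 late array and 0 cycle 13 arrays above background, and lost the call with values floored at background. Of 43 translation factor genes 13 were higher and 7 lower (1 and 6 under all 5 scalings), with a median of 0.00 that ran from -0.28 to -0.10 under the 3 centrings. The cap-binding factor eIF4E1 (-2.20), eIF4EHP (-1.67) and eIF5B (-1.44) fell, and eEF1alpha2 was at least 3.1-fold higher. Of 34 proteasome genes 13 were lower and 3 higher (11 and 0 under all 5 scalings), with a median of -0.05 that was 0.09 as deposited. Members named were Rpn8 (-2.33), Rpn5 (-1.84) and Rpn1 (-1.28), and Rpt4R was below background on every array.

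Markers of particular cells were read in the same way. Of 4 pole cell markers 3 were lower (osk, ovo and gcl) and 1 higher (vas, at 0.70, which was -0.056 under a scaling), with a list median of -3.10. Of 4 yolk nuclei markers srp was higher (4.46), while Hnf4 (-2.61) and esg (-0.99) fell. The neuronal marker elav was at least 7.95-fold higher and Sap47 differed by 0.82, which was -0.38 under a scaling, so 2 of 5 nervous system markers were called. Of 5 muscle and blood markers Mlp84B was at least 3.08-fold higher, and of 3 epidermis and cuticle markers 0 were called by limma. Of 10 yolk protein and eggshell genes of the mother, 9 were below background on all late cycle 14 arrays and 9 on all cycle 13 arrays. The eggshell gene Cp19 was called higher with every array below background.

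The matched haploid comparison used other arrays. Over 10034 genes, 2234 (22.3%) were higher and 2199 (21.9%) lower in haploid late cycle 15 than in haploid cycle 14. Of the 1010 genes at least 2-fold higher in diploids, 765 (75.7%) were also called higher in haploids and 13 (1.29%) lower. Of the 1340 at least 2-fold lower, 872 (65.1%) were called lower in haploids and 98 (7.31%) higher. Across 5633 genes above background on all arrays of a stage in each ploidy, the net changes correlated at 0.733, as a description over genes, which are not independent. All 40 genes named by size of change were called the same way in haploids. For 30 of these 40 the diploid and haploid net changes were also called different in size. The difference of the net changes was called for 2160 genes (21.5%) with the diploid change more positive and 1381 (13.8%) with it more negative, counts whose balance turned over with scaling: over probe sets they were 2579 and 1638 after quantile normalisation, but 507 and 2499 as deposited, 1136 and 2148 with median centring, 871 and 2343 with ribosomal centring, and 312 and 2205 with poly-A centring.

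Some maternal transcripts fell from cycle 13 to late cycle 14 in diploids and not from cycle 14 to late cycle 15 in haploids. Ovo gave 148, 96.7 and 91.4 in haploid late cycle 15, against 128, 104 and 148 in haploid cycle 14, so the haploid series began near the level at which the diploid series ended, and the difference of the changes was -3.08 (adjusted p = 5.7e-10). RPA1 gave 212, 226 and 215 in haploid late cycle 15, against 105, 99.5 and 139 in haploid cycle 14 (difference -3.85, adjusted p = 9.3e-11). The translational repressor brat gave 519.6, 467 and 489.7 in diploid late cycle 14, against 1817, 1944 and 2143 in diploid cycle 13. In haploids it gave 786, 670.4 and 761 in late cycle 15, against 322, 268 and 522 in cycle 14 (difference -3.05, adjusted p = 1.4e-09). For each of these 3 genes the diploid groups did not overlap, and the haploid cycle 14 arrays lay below all diploid cycle 13 arrays. These 3 were chosen after their values were seen. Haploid cycle 14 is 1 cycle later than diploid cycle 13, so ploidy and cycle cannot be told apart in this comparison. In diploid early cycle 14, the same cycle and time as haploid cycle 14, the means were 261 for ovo, 199 for RPA1 and 382 for brat. The haploid cycle 14 means were 127, 115 and 371. That same-cycle comparison was not tested.

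**Figure D5:**
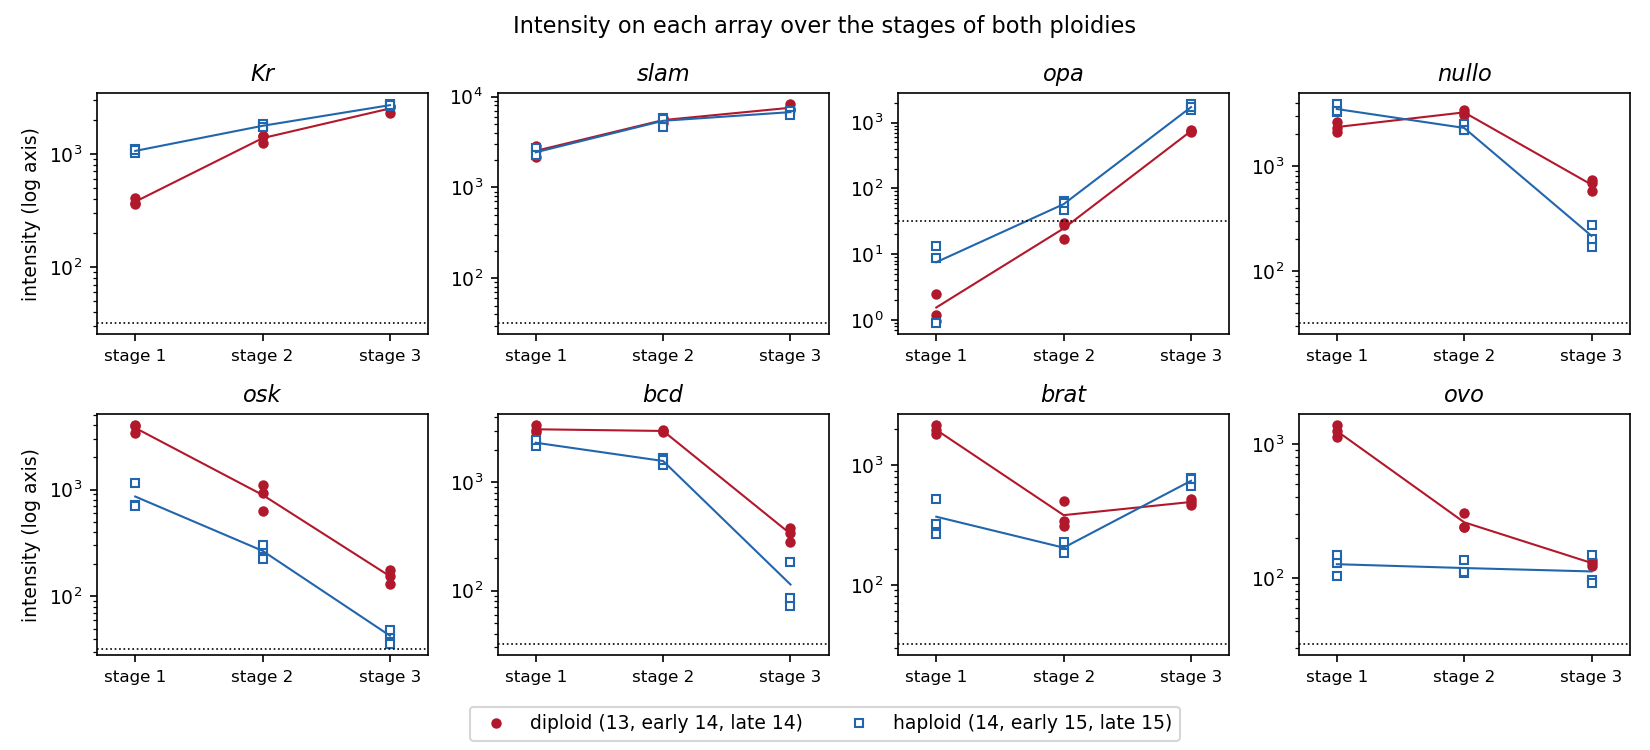
Intensity on each array (log axis) of 8 genes over 3 stages, in diploids (filled red: cycle 13, early 14, late 14) and haploids (open blue: cycle 14, early 15, late 15), with lines through the means and background dotted. Kr, slam and opa climb in both series, and osk and bcd decline in both. In diploids ovo declines from a cycle 13 level above all haploid arrays, which start at cycle 14.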

How the data were processed

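Gene expression was measured on 18 1-colour Affymetrix arrays. The deposited values are linear intensities, 1 per probe set, made by the authors with MAS5, per the submitters' processing notes; its version is not given in the sources used here. The 2% trimmed means of the arrays differed by a ratio of 1.92, so the arrays were quantile normalised, floored at 0.1 and put on the log2 scale. Probe sets at an intensity of 12 (40th percentile) or more on at least 3 arrays were kept, and 6 group means were fitted on all 18 arrays with limma 3.58.1 (R 4.3.3), an intensity trend and Benjamini-Hochberg adjustment. Genes were called at an adjusted p below 0.05. Symbols were updated through RefSeq Release 6. "At least" folds set the brighter group against background or the dim probe's own signal, whichever is higher.

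Members and lists were chosen with earlier results of these data known. Named were the 12 largest rises and falls among genes above background on every array and with no overlap between groups. Also named were 8 each way from or to below background, and the 4 called members of each list with the largest change. Members named by role and 6 each way for the ploidy difference were added. The count under all 5 scalings, the list members named because their call reversed under a scaling, fog, T48 and the genes drawn by stage were chosen after their values were seen. The script was tested on simulated data. A planned promoter motif search was not run. The labels call the replicates biological; 3 arrays a group limit the precision.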

Additional observations from a re-analysis of the deposited data

Results flagged for a closer look

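By limma's test of the difference in net change (diploid minus haploid, log2), 30 of the 40 genes named by size of change were called. The 18 genes given here were picked from all genes called in that test. Where an array group lies below background the fitted difference has no reliable size or order, so each gene's value with all arrays floored at background follows its fitted one. Fitted as positive were nub (4.30, floored -0.35), CG13653 (3.89, floored 3.59), net (3.68, floored 0.67), CG5381 (3.46, floored 1.60), CG44422 (3.06, floored 0.78) and CG11211 (3.00, floored 0.52). With the floor nub changed sign and neither nub nor CG11211 was called. Diploid cycle 13 was below background on every array for these genes other than CG5381. Haploid late cycle 15 was so for CG5381 and CG44422, and haploid cycle 14 for CG11211. CG13653 gave 221, 221 and 172 in diploid late cycle 14, against 20.5, 27.2 and 31.4 in diploid cycle 13, while haploids gave 34.6, 35.7 and 44.6 in late cycle 15, against 93.0, 63.3 and 63.7 in cycle 14 (adjusted p = 1.1e-09).

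Fitted as negative were nbs (-5.47, floored -2.70), WRNexo (-5.22, floored -4.14), CG30466 (-4.46, floored -2.49), Gk2 (-4.41, floored -4.22), Rabex-5 (-4.25, floored -2.52) and mew (-4.15, floored -2.63). Haploid cycle 14 was below background on every array for all of these but Gk2, as were diploid cycle 13 for mew and diploid late cycle 14 for CG30466. WRNexo, an exonuclease gene, gave 56.9, 57.4 and 61.6 in diploid late cycle 14, against 251, 214 and 358 in diploid cycle 13, while haploids gave 138, 119 and 113 in late cycle 15, against 23.2, 6.43 and 23.2 in cycle 14 (adjusted p = 3.6e-08). Gk2 gave 33.0, 28.6 and 24.3 in diploid late cycle 14, against 837, 581 and 795 in diploid cycle 13, and haploids gave 41.1, 47.0 and 42.1 in late cycle 15 and 57.7, 52.2 and 47.9 in cycle 14.

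Chosen after their values were seen were RPA1 (-3.85), ovo (-3.08), brat (-3.05) and da (-2.84), which were above background on every array, and mRpL46 (-3.38, floored -1.34) and htl (-3.20, floored -1.84), whose haploid cycle 14 arrays were all below it, as were those of diploid cycle 13 for htl. The E-box partner gene da gave 664, 636 and 651 in diploid late cycle 14, against 1214, 1246 and 1236 in diploid cycle 13, and 1095, 884 and 1028 in haploid late cycle 15, against 259, 264 and 273 in haploid cycle 14 (adjusted p = 3.9e-14). Groups of 3 arrays were not searched for outlying samples.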

How the results depend on the processing

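Scaling moved the counts of calls, and the cause was not tested. The count of probe sets higher in late cycle 14 was 1867 as deposited, 1141 with median centring, 1081 with ribosomal centring and 764 with poly-A centring. The count at least 2-fold higher was 810, 777 and 661 with median, ribosomal and poly-A centring, and the count at least 2-fold lower was 2468 with ribosomal and 2689 with poly-A centring. The ploidy difference was called for 2517 probe sets with poly-A centring. Sign changes of genes named above are given in the order as deposited, median, ribosomal and poly-A centring: dia -0.16, -0.37, -0.41 and -0.54, E2f2 -0.24, -0.45, -0.49 and -0.62, p53 -0.045, -0.25, -0.29 and -0.43, Dredd -0.47, -0.68, -0.72 and -0.85, HisRS -0.13, -0.34, -0.38 and -0.51. In the same order mRpL23 had -0.094, -0.30, -0.34 and -0.47, mRpL54 -0.12, -0.33, -0.37 and -0.50, mRpS23 -0.21, -0.42, -0.46 and -0.59, mRpS31 -0.21, -0.42, -0.46 and -0.59, mRpS34 -0.25, -0.46, -0.50 and -0.63, and MED28 -0.42, -0.62, -0.67 and -0.80. Sap47 had -0.20, -0.24 and -0.38 under the 3 centrings, and vas (-0.056), RpL7-like (-0.014) and UQCR-Q (-0.079) turned with poly-A centring. Of 438 called list members and named genes, 108 changed sign under some scaling and 11 were also called there. List medians changed sign under some scaling for 11 of 35 lists. Leaving out 1 array in turn gave 3228 to 3341 probe sets higher and 2196 to 2330 lower, 1261 to 1390 and 1510 to 1622 at least 2-fold, and 3803 to 4263 called in the ploidy difference. The replicate numbers did not pair the samples: deviations of same-numbered arrays correlated at -0.007, -0.021 and -0.006, and 0 of 3 late arrays correlated best with their own number. With the replicate block 3490 probe sets were higher and 2390 lower. For the 40 genes named by size of change all 680 alternative values kept direction and call. For the 18 ploidy difference genes 410 of 414 did. The exceptions were nub and CG11211 with a floor of 16 or of background (nub -0.35 at background). Both sets were chosen for large values on these same arrays, so keeping direction and call was largely set by the choice. Of the list, named and ploidy difference genes, 24 lost their call with values floored at background and 12 with a floor of 16. List medians and counts moved by over 1 SD or 1.5 times most often with scaling. Of 105 cases, 59 moved with poly-A, 58 with ribosomal and 54 with median centring, and 38 as deposited. With the background floor 15 moved, with a floor of 16 there were 10, and with a filter at background 12. The mean of all probe sets of a gene moved 6. Leaving out 1 array in turn moved 22 cases and left 608 the same. Of the called genes, 164 were below background on every array of both groups.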

Other observations

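Calls were unevenly spread over the chromosomes, as a description with no test. On the X, 3.3% of 1604 genes were higher and 23.3% lower under all 5 scalings, with a median log2 difference of -0.03. On the major autosome arms these shares were 4.94% to 6.21% higher and 18% to 18.3% lower. Of the 57 genes of chromosome 4, 10.5% were higher and 7.02% lower, with a median of 0.53.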
